A study of Mus musculus with 18 samples.

Results

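The genes described here are 10 regulators of DNA methylation and heterochromatin, *Dnmt1*, *Uhrf1*, *Dnmt3a*, *Dnmt3b*, *Tet1*, *Tet2*, *Tet3*, *Smchd1*, *Trim28* and *Setdb1*. They were taken by symbol from the count tables of mouse embryonic fibroblasts (MEFs) and liver, a rule that uses no measured value, although the genes were picked with earlier results of these data known. All 10 had a row in both tables, among 21959 genes listed for MEFs and 51826 for liver, and all 10 passed the filter on low counts, which left 13306 and 16080 genes to test. The study sequenced polyA RNA from mice that lack repeat B of *Xist*, the RNA that coats and silences the inactive X chromosome in female cells, and asked how its loss alters gene expression. RepB-/- denotes a homozygous deletion of repeat B, made by CRISPR/Cas9 and described by the study in female mice, and WT denotes the genotype without the deletion. Each genotype was represented by 3 libraries in MEFs and by 3 in liver. Treatment, age, sex and strain are not given in the labels of these libraries, and the labels call the fibroblasts primary MEFs while giving their tissue as tail. The labels do not say whether the 3 libraries of a group came from separate animals or cultures, so p-values measure the spread between these libraries, which may be technical. The brain libraries were not analysed here.

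DNA methylation in mammals is copied after each round of replication by DNMT1, which UHRF1 directs to hemimethylated CpG sites, and it is laid down anew by DNMT3A and DNMT3B. The TET1, TET2 and TET3 enzymes oxidise methylcytosine and so open a route to its removal. SETDB1 trimethylates lysine 9 of histone H3 and is brought to retroelements by TRIM28 through KRAB zinc finger proteins, while SMCHD1 is a chromosomal protein needed to keep the inactive X and some imprinted genes silent. *Dnmt1* and *Uhrf1* are transcribed most in dividing cells, and an adult liver holds few of these.

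Total counts were between 11540344 and 20587556 per MEF library, with the 3 WT libraries at 11540344 to 16347806 and the RepB-/- libraries at 20005541 to 20587556, and between 37682201 and 51542709 per liver library. In MEFs all 11 hepatocyte markers were below 1 CPM (counts scaled to a common library total) in every library, and the 9 fibroblast markers summed to 23547 to 30568 CPM in RepB-/- and 16428 to 20060 CPM in WT. The table of MEFs used here holds no row for *Xist*. In MEFs 4 Y-linked genes summed to 0 CPM in each RepB-/- library and to at most 0.321 CPM in WT. In liver the library labelled RepB-/- replicate 2 had 4 counts of *Xist* against 14494 to 26345 in the other 5, and its 4 Y-linked genes summed to 86.2 CPM against at most 0.0292 CPM in the other liver libraries, which goes against female tissue, so liver values are also given without it. The liver libraries of replicate 1 stood apart in both genotypes, with *Afp*, the fetal albumin-like protein, at 507 CPM in RepB-/- and 369 CPM in WT against 2.79 to 6.04 CPM in replicates 2 and 3. The 10 erythroid markers in liver summed to 4516, 2251 and 1395 CPM in RepB-/- and to 1628, 314 and 261 CPM in WT. All 9 of them that were tested were measured higher in RepB-/-, and 0 passed an adjusted p of 0.05 in edgeR. Their part in the liver levels of the members was not tested.

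All 10 genes are autosomal. *Dnmt1* and *Uhrf1* are shown first by the promoter sequence that the reference annotation gives them, because they rose together in MEFs and were the only members whose windows held an E2F-type word, a sequence found at many genes of DNA replication. RefSeq promoter windows (GRCm38.p6, 250 bases before to 50 bases after a start site) were available for all 10 members, in 15 windows. The words searched were TTTCCCGC, TTTCGCGC, TTTGCCGC and TTTGGCGC for E2F and CCAAT for the CCAAT box, each on both strands, and capitals mark every match. The window of *Tet3*, which fell in MEFs, is given for comparison and held a CCAAT box and no E2F-type word.
*Dnmt1*, chr9:20952574-20952873, minus strand: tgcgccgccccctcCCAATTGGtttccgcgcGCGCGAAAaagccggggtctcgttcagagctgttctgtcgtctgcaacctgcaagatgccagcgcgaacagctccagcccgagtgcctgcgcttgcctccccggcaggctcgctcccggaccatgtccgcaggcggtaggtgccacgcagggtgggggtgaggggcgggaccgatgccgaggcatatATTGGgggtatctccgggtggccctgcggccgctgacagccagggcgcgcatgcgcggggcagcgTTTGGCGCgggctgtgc
*Uhrf1*, chr17:56304063-56304362, plus strand: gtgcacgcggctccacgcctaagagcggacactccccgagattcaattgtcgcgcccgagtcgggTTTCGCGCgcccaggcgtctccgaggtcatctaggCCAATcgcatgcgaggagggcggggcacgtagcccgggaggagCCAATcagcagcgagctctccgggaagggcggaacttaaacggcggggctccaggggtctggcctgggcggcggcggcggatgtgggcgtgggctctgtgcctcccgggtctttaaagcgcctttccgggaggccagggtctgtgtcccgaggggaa
*Tet3*, chr6:83441629-83441928, minus strand: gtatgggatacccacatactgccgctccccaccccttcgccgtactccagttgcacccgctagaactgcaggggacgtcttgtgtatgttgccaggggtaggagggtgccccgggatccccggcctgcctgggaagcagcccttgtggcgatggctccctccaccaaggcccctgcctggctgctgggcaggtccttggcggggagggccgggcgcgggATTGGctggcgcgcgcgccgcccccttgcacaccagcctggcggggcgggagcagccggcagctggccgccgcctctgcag
The *Dnmt1* window held TTTCGCGC on the strand opposite to the printed one (printed as its reverse complement), starting 219 bases before the start site, and TTTGGCGC 34 bases into the transcript. The *Uhrf1* window held TTTCGCGC, starting 185 bases before the start site. An E2F-type word was present in 2.26% of all 32851 promoter windows and a CCAAT box in 37.4%. By gene, 2 of 10 members had an E2F-type word in at least 1 window, against 6 of 16 genes of the proliferation list with a window and 2.6% of the 27025 genes of the promoter table. The windows of *Smchd1* and *Trim28*, which also rose in MEFs, held no such word, nor did the other windows of *Dnmt1* and *Uhrf1*. Of the partner genes described below, 5 of 47 with a window held one (10.6%). They include *Hells* and *Suv39h1*, called higher in MEFs, and *Kmt5c*, called lower. There were 33 CpG sites in each of the printed windows of *Dnmt1* and *Uhrf1*, 22 in that of *Tet3*, 57 in *Tet2* and 40 in *Smchd1*, against a median of 7 over all windows. The other windows of *Dnmt1* held 12 and 2 and that of *Uhrf1* 12, with 15 in *Setdb1* and 17 in *Tet1*. The start site of the printed window lies 7265 bases into the annotated gene for *Dnmt1*, 992 for *Uhrf1* and 17406 for *Tet3*. A match describes the letters of a window and does not show a bound site.

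In MEFs, 7 of the 10 genes changed with loss of repeat B. *Dnmt1*, *Uhrf1*, *Smchd1* and *Trim28* were higher in RepB-/- cells, *Tet3*, *Dnmt3a* and *Tet1* were lower, and *Dnmt3b*, *Tet2* and *Setdb1* did not pass the test. The test was edgeR's quasi-likelihood test over all genes with Benjamini-Hochberg adjustment, and a call was an adjusted p under 0.05. At that threshold 39.1% of all genes tested in MEFs were called, 19.4% higher and 19.7% lower, so that 4 of 10 higher and 3 of 10 lower are read against a wide background. The libraries of the genotypes did not overlap for the same 7 members, 4 higher and 3 lower, against 26.4% of all genes in the higher and 25.8% in the lower direction. DESeq2 and the replicate block also called 7 members, and 31.4% and 37.6% of all genes. The median log2 fold change was -0.07 over the members and 0.00 over all genes. CPM values below were scaled by TMM factors, which adjust library totals for composition. Scaling by library totals alone shifted the median of all genes to -0.11 on the log2 scale and changed the split of calls from 2581 higher and 2621 lower to 1645 higher and 3623 lower, while the 7 called members kept their direction and their call.

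**Figure D1:**
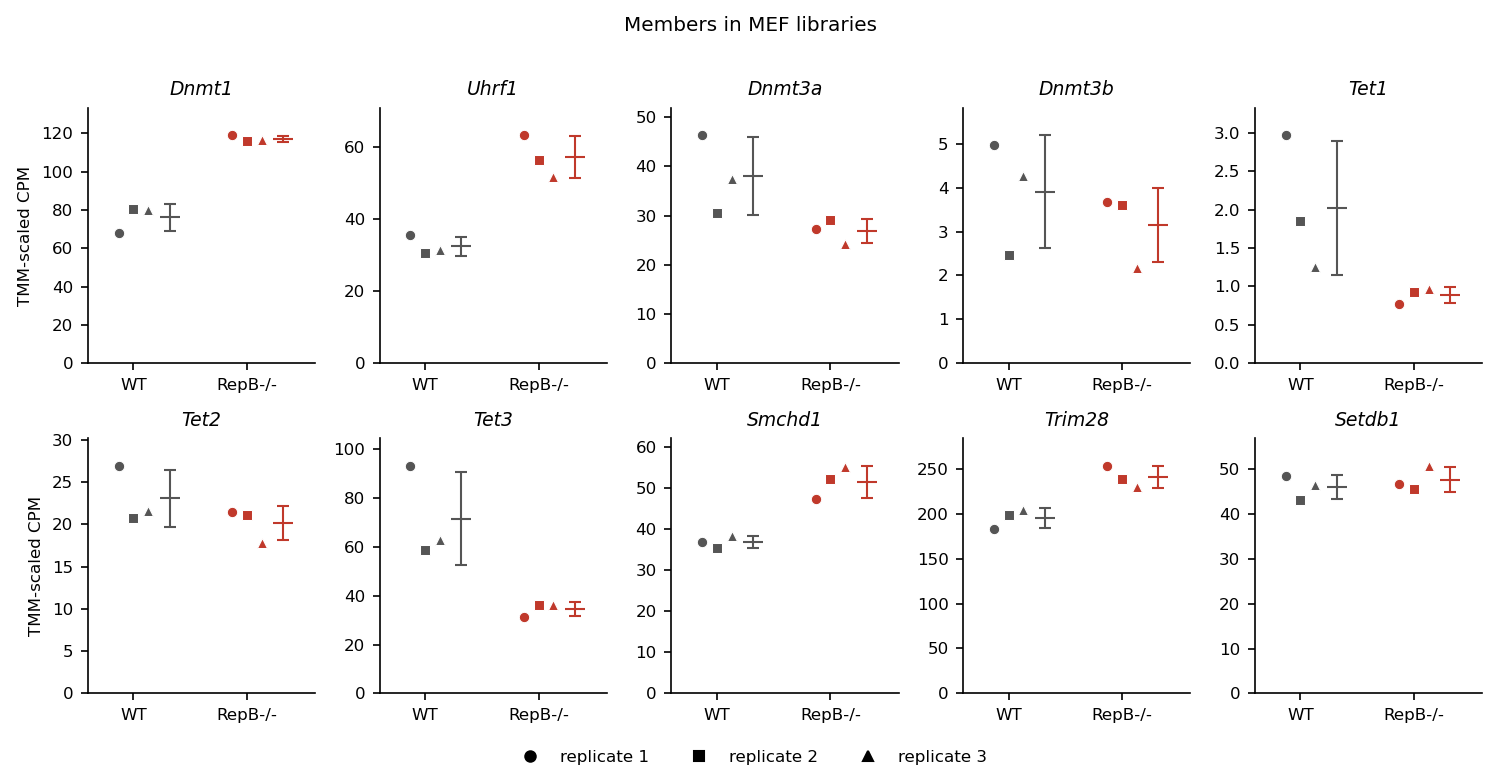
TMM-scaled CPM (vertical axes, each starting at 0) of the 10 members in the 3 WT (grey) and 3 RepB-/- (red) MEF libraries. Points are libraries, with the replicate number given by the shape, and the bar beside them is the mean with its SD. The *Dnmt1* points sit at 116 to 119 CPM in RepB-/- and at 68.0 to 80.6 CPM in WT, and the *Tet3* points at 31.4 to 36.2 and 58.6 to 93.4 CPM.

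The maintenance pair *Dnmt1* and *Uhrf1* rose together. *Dnmt1* (ENSMUSG00000004099, GRCm38 chr9:20907209-20959888) was at 119, 116 and 117 CPM in the RepB-/- libraries and at 68.0, 80.6 and 79.8 CPM in WT. The groups did not overlap, and the RepB-/- libraries differed from each other by less than the WT libraries did. The mean was 117 ± 1.64 CPM in RepB-/- and 76.1 ± 7.04 CPM in WT (SD, n = 3 each), a log2 fold change of 0.62 ± 0.08 (SE) or 1.54-fold (edgeR adjusted p = 5.81e-05). *Uhrf1* (ENSMUSG00000001228, GRCm38 chr17:56303321-56323486), the reader of hemimethylated CpG, was at 63.3, 56.4 and 51.7 CPM in RepB-/- and at 35.5, 30.5 and 31.3 CPM in WT. The genotypes were separate, and the change was the largest rise among the members, 0.82 ± 0.10 on the log2 scale or 1.77-fold (edgeR adjusted p = 3.31e-05).

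Both genes moved with the genes of cell proliferation. Of the 20 genes of the proliferation list, 19 were called higher in RepB-/- MEFs and 0 lower, with a median log2 fold change of 0.60, and their summed level was 1319 to 1376 CPM in RepB-/- against 869 to 974 CPM in WT. *Mki67*, a marker of cycling cells, rose by 1.09 ± 0.14, *Top2a*, the topoisomerase of mitotic chromosomes, by 1.01 ± 0.09, *Mcm2*, a subunit of the replicative helicase, by 0.57 ± 0.07 and *Pcna*, the replication clamp, by 0.55 ± 0.12 (log2 ± SE, all below an adjusted p of 0.05 in edgeR). The part of proliferation in the rise of *Dnmt1* and *Uhrf1* was not tested. The paper reports slower growth of RepB-/- MEFs in a cell counting assay and more of these cells late in the cell cycle. It also reports less of the *Mki67* protein in most tissues, and higher expression of cell cycle gene sets in MEF RNA. Growth and protein are other measures than the RNA levels given here. In bulk RNA, more cells of a type and more RNA per cell cannot be told apart. Sums of other marker lists differed as well. Of the 9 fibroblast markers, whose sums are given above, 6 were called higher in RepB-/- MEFs and *Thy1* was called lower. The 5 endothelial markers summed to 22.7 to 26.1 CPM in RepB-/- and 36.7 to 44.6 CPM in WT, with 4 called lower and *Tek* called higher. The 7 immune markers summed to 117 to 151 CPM in RepB-/- and 49.96 to 64.7 CPM in WT, most of it from *Lyz2*, with 3 of 5 tested called higher and *Cd68* called lower. The 5 muscle markers summed to 58.2 to 65.0 CPM in RepB-/- and 122 to 191 CPM in WT, where *Acta1* alone of 4 tested was called lower and the other 3 did not pass the test. Keratinocyte markers summed to 4.31 to 10.2 CPM in RepB-/- and 4.17 to 5.11 CPM in WT, where *Krt14* alone of 4 tested was called higher. Erythroid markers summed to 3.29 CPM or less in every library, and the 1 gene tested was called lower. Their part in the changes of the members was not tested.

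Of the enzymes of new methylation, *Dnmt3a* fell and *Dnmt3b* did not pass the test. *Dnmt3a* (ENSMUSG00000020661, GRCm38 chr12:3806007-3914443) was at 27.3, 29.1 and 24.3 CPM in RepB-/- and at 46.3, 30.5 and 37.4 CPM in WT. The groups did not overlap, though the highest RepB-/- library and the lowest WT library were only 29.1 and 30.5 CPM. The log2 fold change was -0.50 ± 0.13, 1.41-fold lower (edgeR adjusted p = 0.00851), and -0.34 without WT replicate 1. *Dnmt3b* (ENSMUSG00000027478, GRCm38 chr2:153649450-153687730), the embryonic de novo enzyme, was low in MEFs, with 40 to 72 counts per library. Its level was 3.67, 3.62 and 2.18 CPM in RepB-/- and 4.97, 2.47 and 4.28 CPM in WT, and the groups overlapped. Its log2 fold change was -0.30 ± 0.29 (edgeR adjusted p = 0.447), and estimate ± 2 SE ran from -0.88 to 0.29.

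The TET enzymes were all measured below their WT mean, and *Tet3* and *Tet1* passed the test. *Tet3* (ENSMUSG00000034832, GRCm38 chr6:83362373-83459084) was at 31.4, 36.2 and 36.1 CPM in RepB-/- and at 93.4, 58.6 and 62.9 CPM in WT. No library of RepB-/- reached the lowest WT library, and WT replicate 1, the shallowest library, stood highest. *Tet3* was 2.06-fold lower, at -1.05 ± 0.14 on the log2 scale (edgeR adjusted p = 0.000106), and still -0.81 without WT replicate 1. *Tet1* (ENSMUSG00000047146, GRCm38 chr10:62804570-62908996), the TET enzyme of pluripotent and germ cells, had 15, 18 and 19 counts in RepB-/- and 37, 30 and 21 counts in WT. These counts equal 0.765, 0.930 and 0.963 CPM in RepB-/- and 2.97, 1.86 and 1.25 CPM in WT, so the groups were separate at very low counts. The log2 fold change was -1.16 ± 0.39 (edgeR adjusted p = 0.0288), and the call was lost when any of the 3 RepB-/- libraries or WT replicate 1 was left out, at adjusted p values of 0.0605 to 0.127. *Tet2* (ENSMUSG00000040943, GRCm38 chr3:133463679-133545139), the TET enzyme best known from blood cells, was at 21.5, 21.1 and 17.8 CPM in RepB-/- and at 26.9, 20.7 and 21.6 CPM in WT. The groups overlapped, with a log2 fold change of -0.19 ± 0.12 (edgeR adjusted p = 0.226).

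Among the silencing factors, *Smchd1* and *Trim28* rose and *Setdb1* did not pass the test. *Smchd1* (ENSMUSG00000024054, GRCm38 chr17:71344489-71475343) was at 47.2, 52.1 and 55.0 CPM in RepB-/- and at 36.8, 35.3 and 38.3 CPM in WT. The genotypes were separate here too, and the log2 fold change was 0.48 ± 0.09, a 1.40-fold rise (edgeR adjusted p = 0.000671). *Trim28* (ENSMUSG00000005566, GRCm38 chr7:12999114-13031035) was at 253, 239 and 230 CPM in RepB-/- and at 183, 199 and 204 CPM in WT. The groups were separate and the change was small, 0.30 ± 0.07 on the log2 scale or 1.23-fold (edgeR adjusted p = 0.00475). *Setdb1* (ENSMUSG00000015697, GRCm38 chr3:95323525-95357202), the methyltransferase that TRIM28 recruits, ranged from 45.5 to 50.8 CPM in RepB-/- and from 43.0 to 48.4 CPM in WT. Its log2 fold change was 0.05 ± 0.08 (edgeR adjusted p = 0.634), with estimate ± 2 SE from -0.11 to 0.22, and it was -0.06 under library totals. Of the exon bases of *Setdb1*, 4.73% also belong to *Cers2* or *Gm37500* on the other strand, a share that was 0.799% for *Dnmt3a*, 0.255% for *Tet2* and 0 for the other 7 members.

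**Figure D2:**
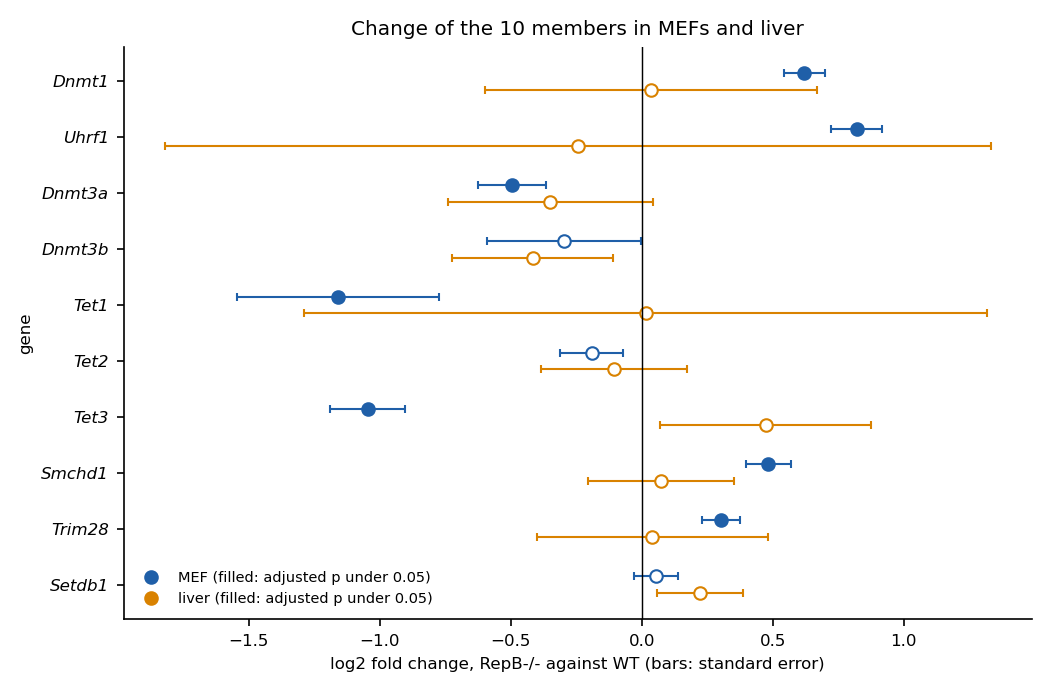
Log2 fold change of RepB-/- against WT (horizontal axis) of each member in MEFs (blue) and liver (orange). Bars are standard errors and filled points passed an adjusted p of 0.05. In MEFs 7 points are filled, from -1.16 for *Tet1* to 0.82 for *Uhrf1*, and in liver 0 are filled, with the widest bars for *Uhrf1* and *Tet1*.

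Levels between genes were compared on the scale of the deposited FPKM values, which divide by gene length and library total. In WT MEFs the order of the group means was *Trim28* at 48.7 FPKM, *Dnmt1* at 10.7, *Uhrf1* at 7.93, *Setdb1* at 6.97, *Tet3* at 4.49, *Dnmt3a* at 2.39, *Smchd1* at 1.91, *Tet2* at 1.43, *Dnmt3b* at 0.801 and *Tet1* at 0.137 FPKM. *Uhrf1* and *Setdb1* overlapped between libraries, as did *Dnmt3a* and *Smchd1*, and the other neighbours did not. In RepB-/- MEFs no neighbours overlapped. There *Smchd1*, at 2.47 ± 0.193 FPKM, stood above *Tet3*, at 1.99 ± 0.164 FPKM, and *Dnmt3a*, at 1.55 ± 0.147 FPKM (SD, n = 3), whereas in WT it stood below both.

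The pathway around these genes was described by 24 partners of DNA methylation and 32 partners of heterochromatin, of which 54 could be tested in MEFs. Of these, 18 were called higher (33.3%) and 4 lower (7.41%), against 19.4% and 19.7% of all genes. The median log2 fold change was 0.13. The 4 X-linked partners were all called higher, and of the 50 autosomal partners 14 were called higher (28%) and 4 lower (8%). Under library totals alone 12 partners were called higher and 7 lower, where 1645 of all 13306 genes tested were called higher and 3623 lower.

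**Figure D3:**
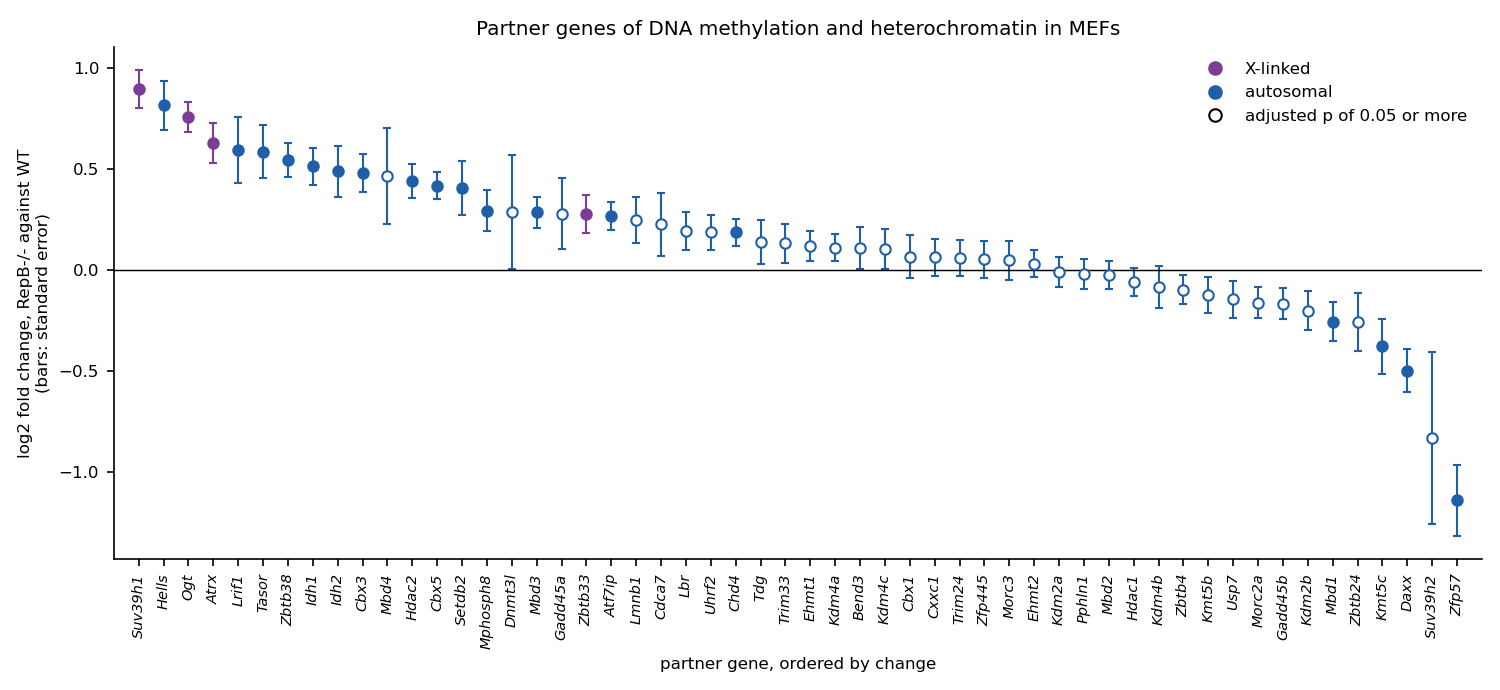
Log2 fold change of RepB-/- against WT in MEFs (vertical axis) of the 54 partner genes tested, ordered from highest to lowest. Bars are standard errors, purple marks X-linked genes, and open points did not pass an adjusted p of 0.05. The filled points run from 0.89 for *Suv39h1* to -1.14 for *Zfp57*, and all 4 X-linked genes lie above 0.

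*Suv39h1*, the X-linked methyltransferase of lysine 9 of histone H3 at pericentric repeats, was at 36.0, 33.2 and 32.5 CPM in RepB-/- and at 17.2, 18.9 and 18.4 CPM in WT. It rose by 0.89 ± 0.09 on the log2 scale (edgeR adjusted p = 1.41e-05). *Ogt*, the X-linked O-GlcNAc transferase that binds TET proteins, was at 180, 185 and 166 CPM in RepB-/- and at 103, 99.3 and 112 CPM in WT, a rise of 0.75 ± 0.07 (edgeR adjusted p = 8.56e-06). *Atrx*, a remodeller that deposits histone H3.3 in heterochromatin, rose by 0.63 ± 0.10. *Zbtb33*, which encodes the methyl-CpG binder Kaiso, rose by 0.28 ± 0.09 (edgeR adjusted p = 0.0324), a call that DESeq2 did not make (adjusted p = 0.0618), nor edgeR with library totals (adjusted p = 0.173), and that was lost when any library but WT replicate 2 was left out (adjusted p of 0.0511 to 0.11). For these 4 genes the libraries of the 2 genotypes did not overlap, a separation in the higher direction that 26.4% of all genes tested also showed.

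Among autosomal partners *Hells*, a remodeller that helps DNMT1 and DNMT3B reach compact chromatin, was at 21, 25.5 and 24.1 CPM in RepB-/- and at 13.6, 11.8 and 14.9 CPM in WT. Its change was 0.81 ± 0.12 on the log2 scale (edgeR adjusted p = 0.000188), close to that of *Uhrf1*. *Zbtb38*, a zinc finger reader of methylated CpG, rose by 0.55 ± 0.08, *Cbx5*, which encodes HP1 alpha, by 0.42 ± 0.07, *Idh1*, whose product makes the 2-oxoglutarate that TET enzymes consume, by 0.51 ± 0.09, and *Hdac2*, a histone deacetylase, by 0.44 ± 0.08. The partner that fell most was *Zfp57*, the KRAB zinc finger protein that brings TRIM28 to imprinted regions, at 12, 11.6 and 13.2 CPM in RepB-/- and at 37.3, 21.8 and 22.8 CPM in WT. All RepB-/- libraries lay below all WT libraries, at -1.14 ± 0.17 (edgeR adjusted p = 0.000238). *Daxx*, the histone chaperone that acts with ATRX, fell by 0.50 ± 0.10 on the log2 scale (edgeR adjusted p = 0.00212), opposite in direction to the *Atrx* transcript. *Kmt5c*, a methyltransferase of lysine 20 of histone H4, was at -0.38 ± 0.14 and *Mbd1*, another methyl-CpG binder, at -0.26 ± 0.10. The libraries of *Kmt5c* overlapped between genotypes. Both calls were lost in DESeq2, at adjusted p = 0.0627 and 0.0646, and without WT replicate 1, where the values were -0.25 for *Kmt5c* and -0.14 for *Mbd1*. The call of *Kmt5c* was also lost with the replicate block (adjusted p = 0.0505) and without RepB-/- replicate 1 or 3 or WT replicate 3. That of *Mbd1* was also lost with TMM factors over autosomal genes (adjusted p = 0.0535), with no filter on low counts (adjusted p = 0.0524), and without any 1 RepB-/- library or WT replicate 3.

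In liver 0 of the 10 members changed by edgeR's test, and 0 of the 53 partners tested did. DESeq2 also called 0 partners and 0 of the 9 members to which it gave an adjusted p, *Uhrf1* having none, and 0 members were below an unadjusted p of 0.05 in either tool, a level that 3.12% of all genes passed in edgeR and 4.3% in DESeq2. Over all liver genes edgeR called 6 of 16080 (0.0373%) and DESeq2 80 of 18810 (0.425%). The biological coefficient of variation was 51.2% in liver and 9.06% in MEFs, and for *Dnmt1* estimate ± 2 SE in liver ran from -1.23 to 1.30, a range that includes its change in MEFs. The replicate block brought the coefficient to 33.7% and called 0.0498% of all genes. It called 0 members, as did the fit with the library labelled RepB-/- replicate 2 left out.

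**Figure D4:**
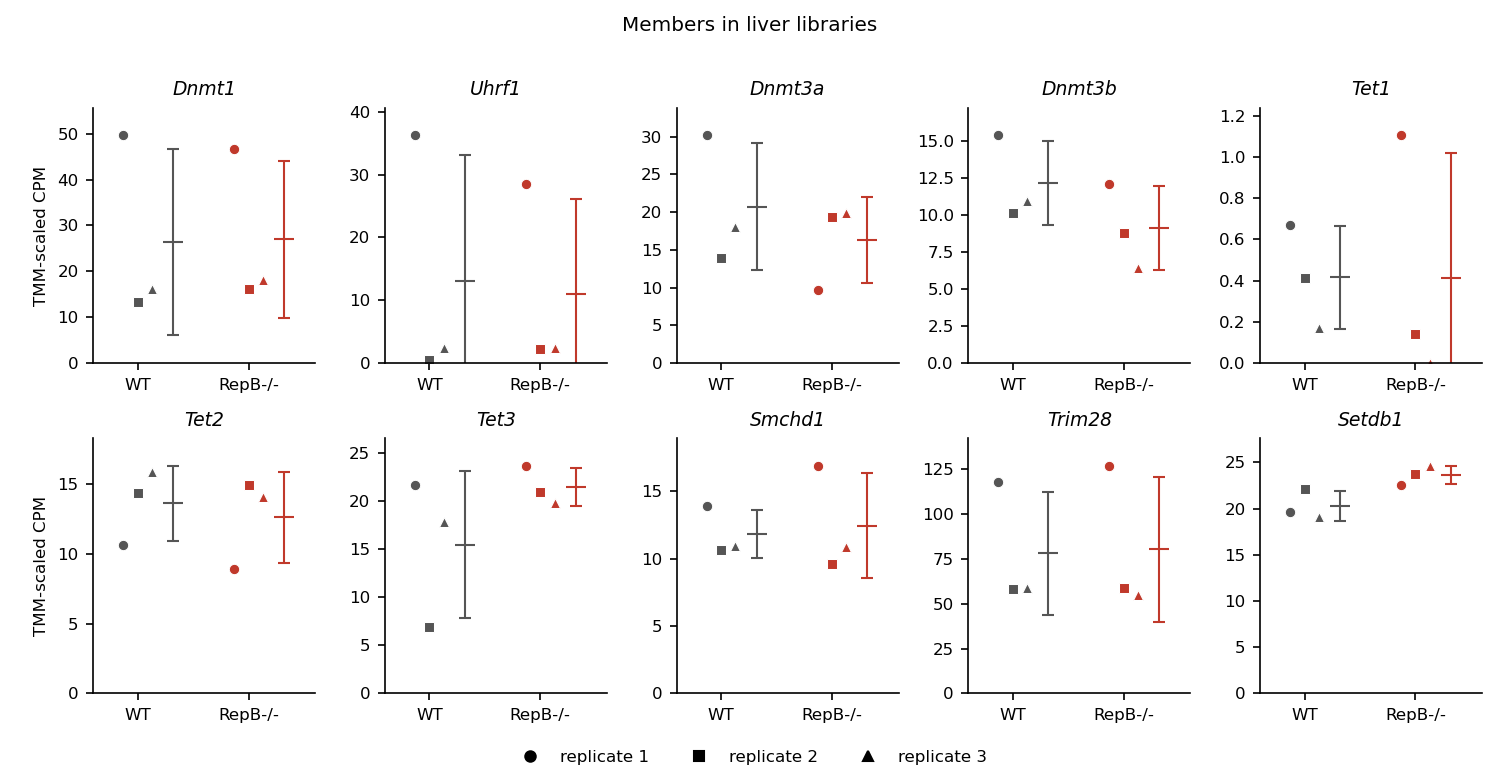
TMM-scaled CPM (vertical axes, each starting at 0) of the 10 members in the 3 WT (grey) and 3 RepB-/- (red) liver libraries. Points are libraries, with the replicate number given by the shape, and the bar beside them is the mean with its SD. The replicate 1 points of *Dnmt1*, *Uhrf1* and *Trim28* stand high in both genotypes, with *Uhrf1* at 28.4 and 36.3 CPM against 0.517 to 2.47 CPM in the other libraries.

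In liver the spread of the maintenance pair and *Trim28* lay mostly between replicate 1 and the other libraries. *Uhrf1* was at 28.4, 2.28 and 2.39 CPM in the RepB-/- libraries and at 36.3, 0.517 and 2.47 CPM in WT. Replicate 1 was high in both genotypes and the other 4 libraries were low. *Dnmt1* was at 46.7, 16.1 and 18.1 CPM in RepB-/- and at 49.7, 13.2 and 16.1 CPM in WT, and *Trim28* at 127, 58.9 and 55.1 CPM against 118, 58.0 and 58.7 CPM. For these 3 genes the genotypes overlapped. The proliferation list summed to 606 and 644 CPM in the RepB-/- and WT libraries of replicate 1 and to 79.8 to 204 CPM in the other 4, and its part in these levels was not tested. *Smchd1* was also highest in replicate 1, at 16.9 CPM in RepB-/- and 13.9 CPM in WT, against 9.59 to 10.9 CPM in the other libraries.

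**Figure D5:**
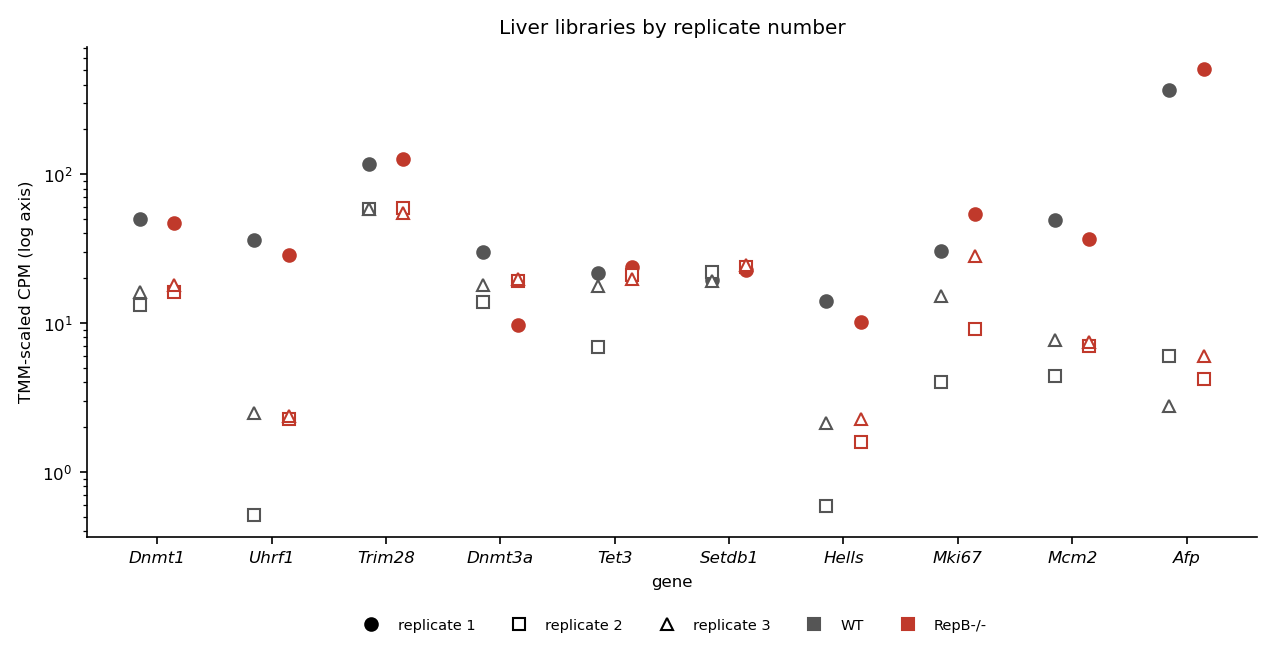
TMM-scaled CPM (vertical log axis) of 6 members and 4 other genes in the liver libraries of WT (grey) and RepB-/- (red). Filled circles are replicate 1, open squares replicate 2 and open triangles replicate 3. *Dnmt1*, *Uhrf1*, *Trim28*, *Hells*, *Mki67*, *Mcm2* and *Afp* are highest in replicate 1 of both genotypes, and *Setdb1* lies between 19.1 and 24.6 CPM in all 6 libraries.

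Compared within replicate numbers on the log2 CPM scale, RepB-/- minus WT for *Dnmt1* was -0.09, 0.28 and 0.17 in replicates 1, 2 and 3, and for *Trim28* 0.11, 0.02 and -0.09. For *Uhrf1* it was -0.35, 2.05 and -0.05, where the value of 2.05 comes from 115 counts in the RepB-/- library with Y-linked counts and 20 counts in its WT counterpart. No member but *Tet3*, *Setdb1* and *Dnmt3b* had the same sign in all 3 pairs. The matching of replicates 2 and 3 rests on their numbers alone.

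*Dnmt3a* in liver went the other way in replicate 1 of the 2 genotypes, at 9.74 CPM in RepB-/- and 30.2 CPM in WT, the lowest and the highest of its 6 values. The other libraries were at 19.3 and 19.8 CPM in RepB-/- and at 13.9 and 18.1 CPM in WT. *Dnmt3b* was at 12.1, 8.80 and 6.45 CPM in RepB-/- and at 15.4, 10.2 and 11 CPM in WT, lower in RepB-/- in each pair, with a log2 fold change of -0.42 ± 0.31 (edgeR adjusted p = 1.00). *Tet3* was at 23.7, 20.9 and 19.8 CPM in RepB-/- and at 21.6, 6.92 and 17.8 CPM in WT, where WT replicate 2 was far below the other 5 libraries. Its log2 fold change was 0.47 ± 0.40, and it was 0.13 without WT replicate 2, 0.80 without WT replicate 1 and 0.49 without the library with Y-linked counts. *Tet2* ranged from 8.91 to 14.9 CPM in RepB-/- and from 10.6 to 15.9 CPM in WT, and *Tet1* had 0 to 56 counts per library. *Setdb1* was at 22.6, 23.8 and 24.6 CPM in RepB-/- and at 19.6, 22.1 and 19.1 CPM in WT. It was the only member whose liver groups did not overlap, which 3.38% of all liver genes showed in the higher and 4.66% in the lower direction, and its log2 fold change was 0.22 ± 0.16 (edgeR adjusted p = 1.00).

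Without the library labelled RepB-/- replicate 2, the liver log2 fold changes were 0.30 for *Dnmt1*, 0.24 for *Uhrf1*, -0.49 for *Dnmt3a*, -0.39 for *Dnmt3b*, 0.42 for *Tet1*, -0.25 for *Tet2*, 0.23 for *Smchd1*, 0.22 for *Trim28* and 0.21 for *Setdb1*. With all libraries they were 0.04, -0.24, -0.35, -0.42, 0.01, -0.11, 0.07, 0.04 and 0.22. None of these passed the test. The X-linked partners were also not called in liver, with log2 fold changes of 0.70 ± 0.54 for *Suv39h1*, 0.34 for *Ogt*, 0.20 for *Atrx* and 0.16 for *Zbtb33*. Without the library with Y-linked counts *Suv39h1* was at 1.06 and *Ogt* at 0.54. Leaving out each liver library in turn gave 0.25 to 1.14 for *Suv39h1*, lowest without RepB-/- replicate 1, and -0.093 to 0.54 for *Ogt*, lowest without RepB-/- replicate 3.

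Per length, on the scale of the deposited TPM values, *Trim28* was the highest member in liver too, at 34.9 to 79.2 TPM in WT and 24.0 to 74.1 TPM in RepB-/-. *Tet1* was the lowest, at 0.0188 to 0.0915 TPM in WT and 0 to 0.134 TPM in RepB-/-. The 8 genes between them each overlapped the next in order, from *Dnmt1* at 4.35 to 19.1 TPM to *Tet3* at 1.94 to 3.99 TPM in WT. FPKM in MEFs and TPM in liver come from separate tables and are not compared with each other.

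The effect of the deletion was compared between the tissues by the interaction of genotype and tissue in all 12 libraries, where edgeR called 0.388% of 15208 genes and DESeq2 4.28% of 16061. Of the 10 members edgeR called 0, and DESeq2 called 0 of those to which it gave a p-value, *Uhrf1* having none. In each tool 1 member was below an unadjusted p of 0.05, a level that 14.2% of all genes passed in edgeR and 16.3% in DESeq2. It was *Tet3*, whose effect in liver exceeded that in MEFs by 1.53 ± 0.47 on the log2 scale (edgeR adjusted p = 0.181, DESeq2 adjusted p = 0.0583, and 0.0583 to 0.419 over all alternatives). For *Dnmt1* the difference was -0.59 ± 0.68 and for *Smchd1* -0.41 ± 0.27, and neither passed the test. For *Uhrf1* it was -1.08 ± 1.73. With replicate number within tissue as a block the errors were smaller, at -0.50 ± 0.19 for *Dnmt1*, -0.43 ± 0.18 for *Smchd1*, -0.43 ± 0.55 for *Uhrf1* and 1.64 ± 0.44 for *Tet3*. In that fit 3 members, *Tet3*, *Dnmt1* and *Smchd1*, were below an unadjusted p of 0.05, as were 20.1% of all genes, and 0 members were called (edgeR adjusted p of 0.111 for *Tet3*), against 1.26% of all genes.

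Genes with the most similar pattern were found by Pearson correlation of log2 CPM over the 12 libraries after the mean of each tissue was removed, across 11978 genes tested in both. The points share libraries, and the liver libraries of replicate 1 weigh heavily in them, so the correlations are descriptions. Genotype means were not removed, so an r within MEFs includes the change of both genes with genotype and adds no separate evidence. The nearest genes to *Uhrf1* were *Mcm5* (r = 0.997), *Chaf1a* (0.995) and *Pclaf* (0.994), a helicase subunit, a subunit of the chromatin assembly factor that works at replication forks, and a PCNA-binding protein. Within the 6 MEF libraries alone the r of *Uhrf1* with *Mcm5* was 0.999, and within the 6 liver libraries it was 0.998. *Dnmt1* was nearest to *Nans* (0.989), *Lig1*, the ligase of replicating DNA (0.988), and *Antxr1* (0.988), and *Trim28* to *Tubb5* (0.994), *Obsl1* (0.989) and *Inhbb* (0.984).

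The remaining members had other neighbours. *Dnmt3a* was nearest to *Zfp7* (0.931), *Zfp57* (0.930) and *Tyw5* (0.888), and *Dnmt3b* to *Usp27x* (0.859), *Tmem132e* (0.857) and *Mllt1* (0.854). *Tet3* was nearest to *Wdr26* (0.955), *Ppfia4* (0.949) and *Stk32c* (0.939), *Tet2* to *Ccdc162* (0.953), *Als2cl* (0.953) and *Acot1* (0.950), and *Tet1* to *Elavl1* (0.973), *Hk2* (0.958) and *Inafm2* (0.954). *Smchd1* was near to *Adam10* (0.951) and *Agk* (0.950). *Setdb1* had the weakest best matches of the members, *Sos2* (0.849), *Iah1* (0.843) and *Kin* (0.840). Within the 6 MEF libraries *Dnmt1* and *Tet3* were opposed (r = -0.986), which restates their opposite changes with genotype. Within the 6 liver libraries their r was 0.592.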

How the data were processed

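For MEFs the study's methods name stranded mRNA libraries, trimming by Cutadapt, alignment by Hisat2 and testing by DESeq2. For liver these steps are not stated apart. The submitters' processing notes name Trim Galore 0.4.1, STAR 2.7.0 and HTSeq 0.12.4 with no role given, and the counting tool of each table and its use of strand are not given in the sources used here. The authors deposited whole-number counts per gene, FPKM for MEFs and TPM for liver. Another 6 per-library columns were not used. The positions given are those of the liver table (GRCm38), identical to the mouse GENCODE release M21 for all 10 members.

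Counts of each tissue were fitted with edgeR 4.0.16 in R 4.3.3 (filterByExpr defaults, TMM, quasi-likelihood test, Benjamini-Hochberg adjustment), RepB-/- against WT, with 3 libraries per group. An interaction was fitted over genes in both tables. Alternatives were DESeq2 1.42.0, other scalings, no filter, limma 3.58.1 with quality weights per tissue for the interaction, a replicate block, a term for replicate 1 in liver, both liver libraries of replicate 1 left out, and each library left out. Library totals without TMM, and the term for replicate 1 without the library with Y-linked counts, were added after seeing the data. The fit was tested on simulated data.

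The letters B and W of the labels were read as RepB-/- and WT. Libraries with the same replicate number deviated together in liver (correlations of 0.71, 0.36 and 0.37 after genotype means were removed), so the numbers were taken as pairs there, although replicates 2 and 3 correlated as well across numbers (0.41 and 0.40). The members and lists were chosen with earlier results of these data known. Genes named were the 10 members, the 8 partners called higher with the smallest adjusted p and the 4 called lower in MEFs, all X-linked partners, *Mki67*, *Pcna*, *Mcm2* and *Top2a*, and the 3 nearest genes per member. 1 partner and 1 nearest gene are not reported here. *Cers2* and *Gm37500* were named after the annotation was examined, *Thy1*, *Tek*, *Lyz2*, *Cd68*, *Acta1* and *Krt14* after their values were seen, and *Afp* and *Xist* as markers of the libraries. Summaries used Python 3.11.15, pandas 2.3.3, numpy 2.4.6 and matplotlib 3.10.9.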

Additional observations from a re-analysis of the deposited data

Results flagged for a closer look

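Among the 10 members and the partners named in the text, 3 genes had every RepB-/- library on one side of the WT mean in MEFs and on the other side in liver. The share of all genes that did so was not counted. *Tet3* was below it in all MEF libraries (log2 fold change -1.05) and above it in all liver libraries (0.47), where WT replicate 2 was low and the fold change was 0.13 without it. The interaction of genotype and tissue was 1.53 for *Tet3* (edgeR adjusted p = 0.181) and did not pass the test. *Idh1* was at 0.51 in MEFs and -0.53 in liver, with an interaction of -1.03 (edgeR adjusted p = 0.334). *Mbd1* was at -0.26 in MEFs and 0.45 in liver, with an interaction of 0.72 (edgeR adjusted p = 0.282). None of these differences passed the test.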

How the results depend on the processing

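The counts of called members in MEFs (7), liver (0) and the interaction (0), and of partners in MEFs (22) and liver (0), stayed within 1.5 times under every alternative run. Leaving out 1 library gave 6 to 7 members and 16 to 22 partners in MEFs, and 0 in liver and in the interaction. The numbers did not pair the MEF libraries (correlations of -0.01, -0.04 and -0.0035 within a number), and the replicate block left 7 members and 20 partners called there. In liver, where they did, the replicate block changed no call. All MEF members except *Setdb1* (-0.060 with library totals) kept their direction under all alternatives.

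In liver, where no member passed the test, directions turned often. With the replicate block *Uhrf1* was at 0.44 and *Tet1* at -0.92. With a term for replicate 1 they were at 0.27 and -0.79, and with that term and without the library with Y-linked counts at 0.19 and -0.96, with *Trim28* at -0.0016. Without both replicate 1 libraries *Uhrf1* was at 0.64, *Dnmt3a* at 0.29, *Smchd1* at -0.078 and *Trim28* at -0.032, and *Tet1* could not be fitted because it failed the filter. With library totals *Dnmt1* was at -0.14, *Tet1* at -0.043, *Smchd1* at -0.078, *Trim28* at -0.11 and *Zbtb33* at -0.014. Leaving out each liver library in turn, where a genotype then has 2 libraries that share the spread of the others, gave ranges of -0.62 to 0.88 for *Dnmt1*, -0.56 to 0.026 for *Dnmt3a*, -2.48 to 2.88 for *Uhrf1*, -2.43 to 0.58 for *Tet1*, -0.26 to 0.094 for *Tet2*, -0.21 to 0.23 for *Smchd1*, -0.45 to 0.46 for *Trim28*, -0.043 to 0.34 for *Atrx*, -0.093 to 0.54 for *Ogt* and -0.070 to 0.36 for *Zbtb33*. In the interaction the ranges without 1 library were -1.27 to 0.25 for *Dnmt1*, -0.10 to 0.51 for *Dnmt3a*, -0.39 to 0.11 for *Dnmt3b*, -3.34 to 2.05 for *Uhrf1*, -1.23 to 1.75 for *Tet1*, -0.091 to 0.27 for *Tet2* and -0.78 to 0.15 for *Trim28*, and limma put *Tet1* at -0.22. The cause of these turns was not tested. Depth limits *Tet1* in both tissues and *Dnmt3b* in MEFs.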
